A study of Homo sapiens with 8 samples.

Results

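The enzymes that hydroxylate collagen chains and crosslink collagen and elastin were described in Hs578T cells at 2 levels of glucose. They were chosen by symbol, with earlier results of these data known. The 10 genes were P4HA1, P4HA2, P4HA3, PLOD1, PLOD2, PLOD3, LOX, LOXL1, LOXL2 and LOXL4, among the 21077 genes of the table. Hs578T is a cultured human breast cancer line, ER negative and of mesenchymal type. For 48 h it was given 5 mM glucose (low glucose, the control) or 25 mM glucose (high glucose, to mimic hyperglycemia), and RNA-Seq covered 4 replicates of each group, 8 libraries in all. According to the methods of the study, cells in high-glucose experiments were without serum in both groups. No library with another solute at a matched concentration was analysed here, so glucose and osmolarity cannot be told apart. All libraries are of 1 cell line and 1 time. Whether replicates are separate cultures is not stated in the labels, and p values speak only of how far these libraries differ from each other, and that spread may be technical.

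Collagen chains are modified in the endoplasmic reticulum before they fold into a triple helix. Prolyl 4-hydroxylases make the 4-hydroxyproline that keeps the helix stable at body temperature, and lysyl hydroxylases make the hydroxylysine that later carries sugars and enters crosslinks. Both are dioxygenases that use iron, oxygen, 2-oxoglutarate and ascorbate. Outside the cell, the copper enzymes of the lysyl oxidase family oxidize lysine and hydroxylysine of collagen and elastin to aldehydes, from which the crosslinks form. Several genes of these families are known targets of hypoxia-inducible factors, and stiff, crosslinked collagen is a known feature of breast tumors.

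Values are normalized signal, taken as read counts scaled to library size (CPM) with TMM scaling, and are given as mean ± SD with n = 4 per group. Log2 fold changes are log2 differences of CPM + 1, high glucose against low, with the SE from limma. That scale shrinks the change of weakly expressed genes. Changes written as a number with -fold are ratios of the mean CPM of the groups. Adjusted p values are from limma with Benjamini-Hochberg adjustment over all 15570 tested genes. Libraries held an estimated 10244900 to 11956678 counts, so that 1 count equals 0.0867 to 0.118 CPM. The 9 tested members rested on 93 to 11358 estimated counts in each library, and LOXL4 on 0 to 4. The deposited values summed to 1205567 to 1229021 per library in low glucose and to 1017015 to 1036274 in high glucose. When each library was rescaled to the same total, the median change of all tested genes moved from about 0 to 0.20 on the log2 scale. The tested members moved somewhat more, for example P4HA1 from 0.14 to 0.39 and LOXL2 from −0.38 to −0.14. Changes as small as these shifts depend on the scaling. EPCAM was at 0 in all 8 libraries, and ESR1 was at 0.141 ± 0.106 in low and 0.181 ± 0.0967 CPM in high glucose. Some other luminal markers were expressed. KRT18 was at 232 ± 10.1 in low and 104 ± 6.40 CPM in high glucose, KRT8 at 49.5 ± 2.24 and 17.3 ± 1.93 CPM. GATA3 was at 21.0 ± 2.15 and 20.2 ± 1.49 CPM. VIM stood at 8420 ± 132 in low and 3733 ± 140 CPM in high glucose.

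The sequences before the gene starts are shown for the member of each family that rose and the member of the same family that fell most, so that they can be read against each other. They are the 250 bases before the start of the gene in the RefSeq promoter table (GRCh38.p14), written 5′ to 3′ on the strand of the gene. For LOX, which has 3 starts there, the outermost was taken, and the start of P4HA2 lies within the gene's span. Capitals mark ACGTG and GCGTG on either strand, the letters shared by the sites that hypoxia-inducible factors are known to bind. A palindromic CACGTG would count on both strands, and none is in the sequences shown.
P4HA1 (chr10:73096867-73097116, minus strand): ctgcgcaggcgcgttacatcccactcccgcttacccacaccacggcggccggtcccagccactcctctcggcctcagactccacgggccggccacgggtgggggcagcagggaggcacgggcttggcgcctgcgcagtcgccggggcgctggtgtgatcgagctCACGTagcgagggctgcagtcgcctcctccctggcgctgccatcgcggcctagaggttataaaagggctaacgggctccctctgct
P4HA2 (chr5:132227092-132227341, minus strand): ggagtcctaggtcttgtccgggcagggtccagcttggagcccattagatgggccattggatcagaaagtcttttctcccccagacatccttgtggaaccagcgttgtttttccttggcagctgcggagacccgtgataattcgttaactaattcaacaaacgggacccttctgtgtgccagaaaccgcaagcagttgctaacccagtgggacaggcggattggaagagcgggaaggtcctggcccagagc
PLOD1 (chr1:11934467-11934716, plus strand): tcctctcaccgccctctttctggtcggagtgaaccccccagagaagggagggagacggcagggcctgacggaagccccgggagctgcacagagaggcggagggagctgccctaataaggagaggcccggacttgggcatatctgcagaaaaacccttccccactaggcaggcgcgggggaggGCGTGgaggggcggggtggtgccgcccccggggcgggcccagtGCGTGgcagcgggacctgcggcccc
PLOD2 (chr3:146161185-146161434, minus strand): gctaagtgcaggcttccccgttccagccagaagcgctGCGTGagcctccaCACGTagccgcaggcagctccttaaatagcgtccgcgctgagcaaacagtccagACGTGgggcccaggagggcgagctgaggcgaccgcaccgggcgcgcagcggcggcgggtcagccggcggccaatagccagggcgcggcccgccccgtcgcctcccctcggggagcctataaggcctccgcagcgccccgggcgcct
LOX (chr5:122078260-122078509, minus strand): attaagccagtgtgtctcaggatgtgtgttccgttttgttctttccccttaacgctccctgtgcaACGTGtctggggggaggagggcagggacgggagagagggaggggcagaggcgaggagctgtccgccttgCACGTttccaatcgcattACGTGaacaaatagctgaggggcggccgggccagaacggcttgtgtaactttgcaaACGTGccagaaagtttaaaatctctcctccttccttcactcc
LOXL1 (chr15:73926212-73926461, plus strand): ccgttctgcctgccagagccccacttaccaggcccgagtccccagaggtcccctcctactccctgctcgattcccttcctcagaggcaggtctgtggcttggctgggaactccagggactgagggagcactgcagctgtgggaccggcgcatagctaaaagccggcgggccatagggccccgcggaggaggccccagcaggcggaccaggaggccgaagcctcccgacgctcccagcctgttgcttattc

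Of the 10 genes, 8 had a sequence in this table, and P4HA3 and LOXL2 were not matched. The LOX sequence held 4 ACGTG and no GCGTG, the PLOD2 sequence 2 ACGTG and 1 GCGTG, the P4HA1 sequence 1 ACGTG and the PLOD1 sequence 2 GCGTG. Neither was in the 250 bases before P4HA2, PLOD3, LOXL1 or LOXL4. Among 35116 such sequences in the table, 18.5% held ACGTG, 32.2% held GCGTG and 43.2% held at least 1 of them. The 4 members with a match were PLOD2 and P4HA1, which rose, and PLOD1 and LOX, which fell. A match is a description of the letters and not of binding, which was not measured here.

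Each family had a member that rose in high glucose while the others of the family that could be tested fell. PLOD2 rose 2.48-fold, LOXL1 1.91-fold and P4HA1 1.11-fold, and P4HA2, PLOD1, LOX, P4HA3, PLOD3 and LOXL2 fell, from 3.19-fold for P4HA2 to 1.30-fold for LOXL2, whose call was lost with quantile normalization. All 9 tested members passed an FDR of 0.05, 3 higher and 6 lower, where 72.9% of all tested genes passed, 35.7% higher and 37.2% lower. In all 9 the groups did not overlap, as was the case for 66.9% of tested genes. As most genes passed, nothing is read from the count of members, and their sizes and directions are given one by one. In these bulk samples, fewer cells of a type and less RNA per cell cannot be told apart. The median change of the 9 was −0.48, and that of all tested genes was 0.00.

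**Figure D1:**
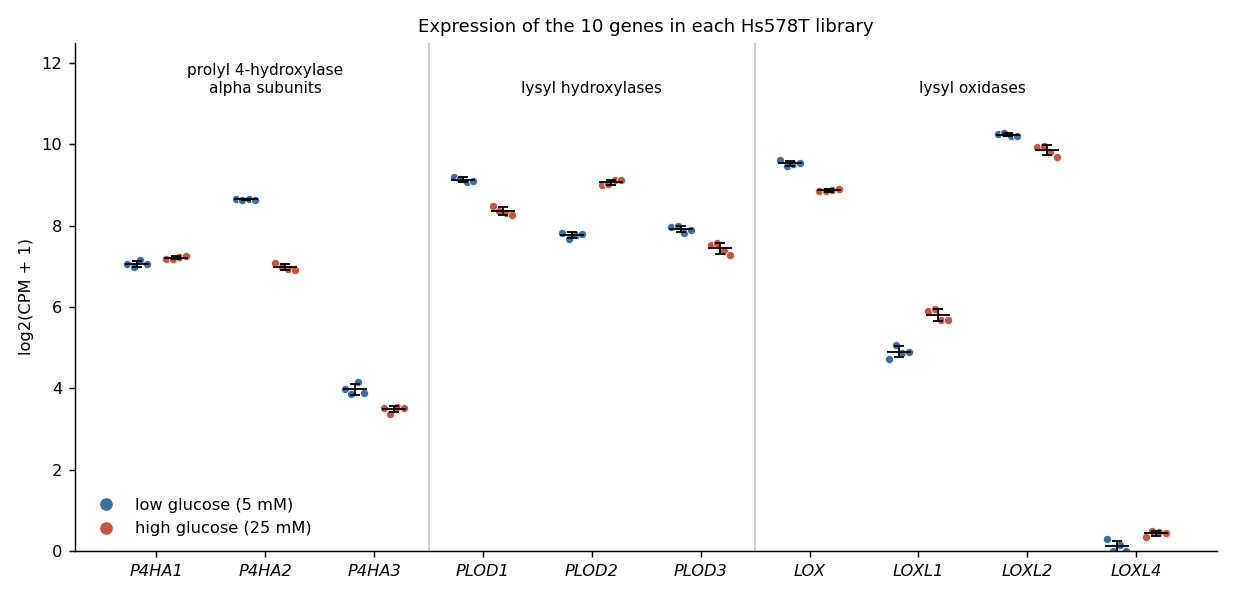
Level of each of the 10 genes in each library, as log2(CPM + 1) on the vertical axis. Points are libraries (4 per group), and black marks are the mean ± SD. P4HA2 and PLOD2 stand farthest apart between groups, in opposite directions, and LOXL4 lies close to 0 in both groups.

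The alpha subunits of prolyl 4-hydroxylase carry the catalytic site and pair with the beta subunit, protein disulfide isomerase, encoded by P4HB. P4HA2 (ENSG00000072682.18, chr5:132190147-132227853, GRCh38.p14) was at 403, 398, 400 and 397 CPM in the low-glucose libraries and at 135, 126, 121 and 119 CPM in the high-glucose libraries. The 4 low-glucose libraries were nearly equal and lay far above all 4 high-glucose libraries. P4HA2 fell from 399 ± 2.36 to 125 ± 7.02 CPM (adjusted p = 2.53e-14), a log2 fold change of −1.67 with an SE of 0.0405. This was the largest change among the tested members, and 3.51% of tested genes changed more. The antisense gene P4HA2-AS1, which overlaps its span, was at 0.597 CPM at most.

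P4HA1 (ENSG00000122884.12, chr10:73007217-73096866), which encodes the alpha subunit that most cells are known to use, was at 133, 126, 142 and 132 CPM in low glucose and at 144, 144, 150 and 152 CPM in high glucose. The highest low-glucose library lay just under the lowest high-glucose library. P4HA1 rose slightly, from 133 ± 6.90 to 147 ± 4.00 CPM (adjusted p = 0.00754), a log2 fold change of 0.14 with an SE of 0.0434. Of the tested genes, 83.9% changed more. Its size depended on the scaling, at 0.39 with libraries rescaled to the same total and 0.25 with quantile normalization, with the same direction in both.

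P4HA3 (ENSG00000149380.12, chr11:74250146-74311640), the least studied alpha subunit, was at 14.8, 13.6, 16.9 and 13.7 CPM in low glucose and at 10.4, 9.32, 10.7 and 10.4 CPM in high glucose. All 4 low-glucose libraries were above all 4 high-glucose libraries. P4HA3 fell from 14.8 ± 1.54 to 10.2 ± 0.610 CPM (adjusted p = 3.52e-04), a log2 fold change of −0.49 with an SE of 0.0979, or by 0.26 on the log2 scale with libraries rescaled to the same total. Its span overlaps that of PPME1, a phosphatase methylesterase gene that rose from 81.5 ± 3.82 to 259 ± 7.65 CPM. Whether the counting used strand is not given in the sources used here, and what part of the P4HA3 signal comes from PPME1 was not tested.

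Per kilobase of the MANE Select transcript, the 3 alpha subunits summed to 143 ± 3.41 in low and 85.8 ± 1.07 CPM per kilobase in high glucose. P4HA2 made up 61.5% ± 1.30 of that sum in low glucose and 32.1% ± 1.73 in high glucose, while P4HA1 went from 34.0% ± 0.964 to 62.6% ± 1.63. The transcripts of these 2 subunits thus changed places in the order of levels. P4HA3 held 4.57% ± 0.367 and 5.28% ± 0.262, with overlapping libraries. The beta subunit gene P4HB, which also serves protein folding in general, fell from 1252 ± 19.3 to 795 ± 42.3 CPM (log2 fold change −0.66, adjusted p = 4.19e-10) and was chosen after its values were seen.

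The lysyl hydroxylases are the products of the PLOD genes. PLOD2 (ENSG00000152952.12, chr3:146069440-146161184) encodes the enzyme known for hydroxylating lysines of the collagen telopeptides, from which the stable hydroxylysine-derived crosslinks of stiff tissue form. It was at 226, 202, 218 and 220 CPM in low glucose and at 511, 523, 557 and 554 CPM in high glucose. The lowest high-glucose library was more than double the highest low-glucose library. PLOD2 rose from 217 ± 10.1 to 536 ± 22.9 CPM (adjusted p = 4.60e-13), a log2 fold change of 1.30 with an SE of 0.0419, and 8.28% of tested genes changed more.

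PLOD1 (ENSG00000083444.17, chr1:11934717-11975537), which encodes the hydroxylase of lysines within the helix, was at 584, 571, 542 and 546 CPM in low glucose and at 356, 330, 318 and 306 CPM in high glucose. The groups lay wide apart. PLOD1 fell from 561 ± 20.1 to 328 ± 21.2 CPM (adjusted p = 3.44e-10), a log2 fold change of −0.78 with an SE of 0.0447. PLOD3 (ENSG00000106397.12, chr7:101205984-101217581), whose product also adds sugars to hydroxylysine, was at 248, 254, 227 and 237 CPM in low glucose and at 183, 190, 166 and 154 CPM in high glucose. Its groups did not overlap, and the mean fell from 241 ± 12.2 to 173 ± 16.5 CPM (adjusted p = 2.54e-06), a log2 fold change of −0.48 with an SE of 0.0592. With libraries rescaled to the same total, PLOD3 fell by 0.24 on the log2 scale.

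The sum of the 3 lysyl hydroxylases per kilobase was 332 ± 10.6 in low and 315 ± 6.80 CPM per kilobase in high glucose. Their make-up moved more than their total. The sums of all 3 families were taken from the deposited values only. A change as small as that of the lysyl hydroxylase sum, and its direction, depends on the scaling. PLOD2 went from 17.4% ± 0.944 to 45.5% ± 2.79 of the sum, from the lowest of the 3 to the highest. PLOD1 went from 56.8% ± 0.365 to 34.97% ± 1.61 and PLOD3 from 25.8% ± 0.753 to 19.5% ± 1.499. In none of the 3 shares did the groups overlap.

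**Figure D2:**
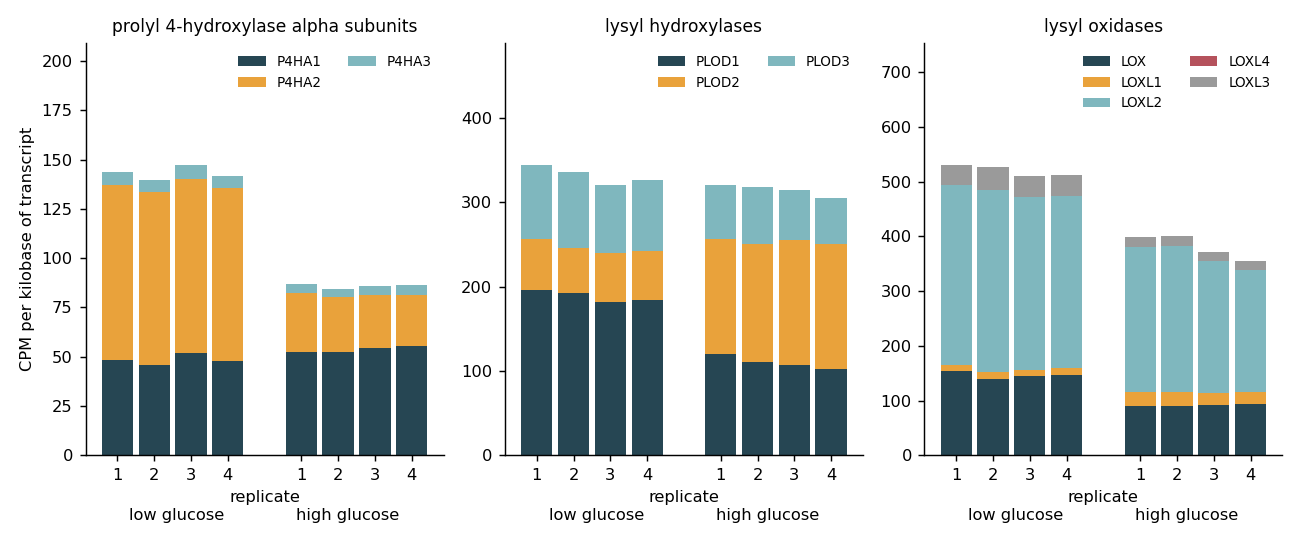
CPM per kilobase of transcript (vertical axis) of the genes of each family, stacked for each library, with low-glucose replicates at left and high-glucose replicates at right in each panel. By transcript level, P4HA1 stands above P4HA2 in high glucose, PLOD2 becomes the highest lysyl hydroxylase, and LOXL2 remains the highest lysyl oxidase. Protein was not measured here. LOXL3 is shown to complete its family.

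The lysyl oxidases act outside the cell. LOX (ENSG00000113083.14, chr5:122063195-122078259), the founding member, was at 781, 707, 732 and 745 CPM in low glucose and at 461, 457, 468 and 480 CPM in high glucose. All low-glucose libraries were far above the high-glucose libraries, which lay close together. LOX fell from 741 ± 30.6 to 467 ± 10.2 CPM (adjusted p = 1.57e-10), a log2 fold change of −0.67 with an SE of 0.0360. The change was −0.42 with libraries rescaled to the same total and −0.40 with quantile normalization. The span of LOX overlaps that of SRFBP1, which fell from 58.5 ± 3.33 to 28.9 ± 3.04 CPM, and the part of SRFBP1 in the LOX signal was not tested.

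LOXL1 (ENSG00000129038.16, chr15:73926462-73952136), known for elastic fiber assembly, was at 25.6, 32.4, 28.4 and 28.9 CPM in low glucose and at 58.4, 60.7, 50.3 and 50.5 CPM in high glucose. Every high-glucose library was above every low-glucose library. LOXL1 rose from 28.8 ± 2.80 to 55.0 ± 5.37 CPM (adjusted p = 4.87e-08), a log2 fold change of 0.91 with an SE of 0.0796. The antisense gene LOXL1-AS1, which overlaps its span, was at 18.3 ± 1.14 and 16.3 ± 0.558 CPM and was not called (adjusted p = 0.0856). The study's methods name a stranded library preparation for its tumors and none for cultured cells. Whether the counting used strand is not given, and what part of the LOXL1 signal comes from LOXL1-AS1 was not tested.

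LOXL2 (ENSG00000134013.15, chromosome 8), which oxidizes type IV collagen among other substrates, was at 1222, 1238, 1177 and 1172 CPM in low glucose and at 984, 991, 897 and 828 CPM in high glucose. Per kilobase it had the highest level of the members in every library, and its groups did not overlap as deposited. LOXL2 went from 1202 ± 33.0 to 925 ± 77.7 CPM (adjusted p = 5.26e-06), a log2 fold change of −0.38 with an SE of 0.0503. This call depended on the scaling, since the change was −0.14 (adjusted p = 0.0157) with libraries rescaled to the same total and −0.07 (adjusted p = 0.140) with quantile normalization. It was the only member called in the main analysis that lost its call under an alternative.

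LOXL4 (ENSG00000138131.4, chr10:98247690-98268194), a paralog of LOXL2, was at 0.221, 0, 0.108 and 0 CPM in low glucose and at 0.260, 0.401, 0.382 and 0.360 CPM in high glucose. These values are 3 estimated counts in all in low glucose and 15 in high glucose, a ratio of 4.13 with an exact 95% counting interval of 1.17 to 22.3. The 4 high-glucose libraries were above the low-glucose libraries, but the nearest pair, at 0.260 and 0.221 CPM, lay less than 1 count apart. LOXL4 was below the filter on low values and was not tested. Such an interval covers counting error only.

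Per kilobase, the lysyl oxidases with LOXL3 summed to 520 ± 10.6 in low and 382 ± 21.7 CPM per kilobase in high glucose. LOXL2 held 62.1% ± 0.710 and 65.0% ± 1.83 of the sum and LOX 28.1% ± 1.14 and 24.1% ± 1.92, and for both the libraries of the groups overlapped. LOXL1 went from 2.36% ± 0.234 to 6.13% ± 0.297, without overlap. LOXL3, which is no member of the 10 and belongs to the list of other collagen-modifying enzymes, fell from 142 ± 6.20 to 66.6 ± 2.58 CPM (log2 fold change −1.08, adjusted p = 9.52e-12).

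The order of the members by level per kilobase also differed between the groups. In low glucose it was LOXL2, PLOD1, LOX, P4HA2, PLOD3, PLOD2, P4HA1, LOXL1, P4HA3 and LOXL4, and the libraries of P4HA2 at 87.9 ± 0.519 and PLOD3 at 85.6 ± 4.32 CPM per kilobase overlapped. In high glucose it was LOXL2, PLOD2, PLOD1, LOX, PLOD3, P4HA1, P4HA2, LOXL1, P4HA3 and LOXL4. There PLOD3 at 61.4 ± 5.84 and P4HA1 at 53.7 ± 1.46 CPM per kilobase overlapped, since the lowest library of PLOD3 was below the highest of P4HA1. The ranges of all other neighbors were apart. PLOD2 moved from the sixth place to the second, and P4HA2 from the fourth to the seventh.

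To ask whether members of a family changed by different amounts, the difference of log2(CPM + 1) between 2 members was taken within each library, which does not depend on the scaling apart from the pseudocount. Of 12 pairs, 11 differed between the groups in a 2-sided exact permutation test (p = 0.0286, adjusted p = 0.0312 over the 12 pairs), and these 11 did not overlap. Among all pairs of tested genes, 65.0% likewise did not overlap, so the sizes of the differences are given and nothing is read from the count. No smaller p can be had from 4 against 4 libraries. The 3 pairs with LOXL4 rest on its few counts, and 8 of the 9 pairs without LOXL4 passed.

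The largest difference was between the lysyl hydroxylases PLOD1 and PLOD2. PLOD1 was above PLOD2 by 1.37 ± 0.0860 on the log2 scale in low glucose and below it (−0.71 ± 0.150) in high glucose, a difference of responses of −2.08 (SE 0.0866). For P4HA1 minus P4HA2 the values were −1.58 ± 0.0706 and 0.23 ± 0.114, a difference of 1.81 (SE 0.0670). In both pairs the order of the 2 members was reversed between the groups in every library, per kilobase as well.

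PLOD2 also differed from PLOD3 (difference of responses 1.78, SE 0.114) and P4HA2 from P4HA3 (−1.18, SE 0.0901). Among the lysyl oxidases, LOX minus LOXL1 differed by −1.58 (SE 0.127) and LOXL1 minus LOXL2 by 1.29 (SE 0.0721). PLOD1 and PLOD3, which both fell, still differed, by −0.30 (SE 0.0469). The exception was LOX minus LOXL2, at −0.70 ± 0.0753 in low and −0.98 ± 0.154 in high glucose, for which the groups overlapped (−0.28, SE 0.0857, exact p = 0.0571). This pair passed with quantile normalization (−0.32) and without high-glucose replicate 4 (−0.35).

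**Figure D3:**
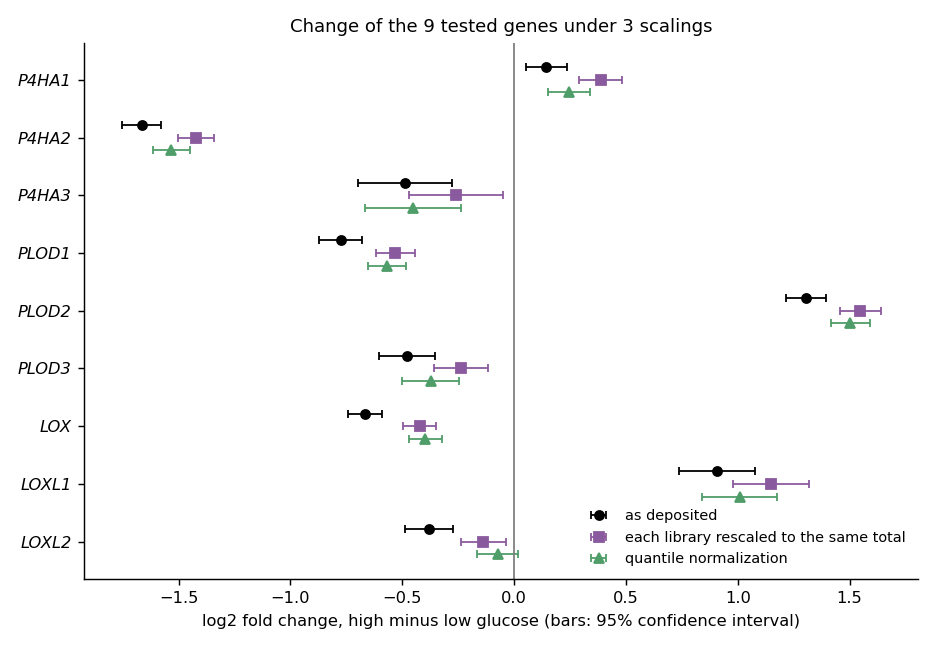
Change of the 9 tested genes (horizontal axis, log2 fold change of high over low glucose, with the 95% confidence interval from limma) for the deposited values, for libraries rescaled to the same total, and for quantile normalization. No gene changes direction, and the interval of LOXL2 reaches 0 with quantile normalization.

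The genes around these enzymes in collagen synthesis were taken from lists, each given as a count and a median change over its tested genes. As 35.7% of all tested genes were called higher and 37.2% lower, nothing is read from the counts of any list. With libraries rescaled to the same total, the median turned positive for the other collagen-modifying enzymes (0.19), the chaperones and export genes (0.02) and the collagen chains (0.03). Among 10 other collagen-modifying enzymes, 5 were higher and 5 lower (median −0.05). CRTAP, the helper of the prolyl 3-hydroxylase complex, fell from 647 ± 10.7 to 394 ± 5.11 CPM (log2 fold change −0.71, adjusted p = 1.12e-11), and P3H2, a prolyl 3-hydroxylase, rose from 90.6 ± 2.44 to 162 ± 4.56 CPM (0.83, adjusted p = 3.73e-11). P3H1 rose from 113 ± 5.30 to 190 ± 10.1 CPM while PPIB, the third subunit of its complex with CRTAP, fell from 738 ± 22.3 to 430 ± 19.3 CPM, so the subunits of 1 complex had changes of 0.74, −0.71 and −0.78. P3H1 and PPIB were chosen after their values were seen.

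Of 12 genes of collagen chaperones and export, 4 were higher and 7 lower (median −0.22), or 6 higher and 5 lower with libraries rescaled to the same total. FKBP14, a prolyl isomerase of the endoplasmic reticulum, rose from 60.5 ± 2.83 to 153 ± 6.05 CPM (log2 fold change 1.33, adjusted p = 1.23e-12), a size near that of PLOD2. MIA2 fell from 147 ± 6.45 to 46.8 ± 3.49 CPM (−1.63, adjusted p = 8.29e-13) and MIA3 from 316 ± 12.3 to 169 ± 10.03 CPM (−0.90, adjusted p = 7.08e-11), both of which load large cargo such as procollagen at exit sites of the endoplasmic reticulum.

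Of 7 tested genes of procollagen processing, 4 were higher and 3 lower (median 0.29). With libraries rescaled to the same total, 4 were higher and 2 lower (median 0.53). The propeptidase genes ADAMTS14 and ADAMTS3 rose, from 7.70 ± 0.763 to 34.0 ± 2.88 CPM (log2 fold change 2.01, adjusted p = 2.63e-11) and from 0.503 ± 0.296 to 5.65 ± 0.648 CPM (2.16, adjusted p = 6.57e-09). BMP1, which cleaves the other end of procollagen and also activates LOX, fell from 114 ± 6.83 to 60.6 ± 7.38 CPM (−0.91, adjusted p = 1.76e-08).

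Of 11 collagen chains that reached the filter in both groups, 3 were higher and 8 lower (median −0.21), and ELN, the gene of elastin, was at 0 in all 8 libraries. That split depended on the scaling, with 5 higher and 4 lower when libraries were rescaled to the same total and 6 higher and 3 lower with quantile normalization. COL1A2 rose from 2735 ± 38.7 to 4442 ± 362 CPM (log2 fold change 0.70, adjusted p = 4.11e-09) and COL12A1 from 324 ± 14.8 to 519 ± 16.6 CPM (0.68, adjusted p = 3.27e-10). COL6A2 fell from 2279 ± 165 to 1068 ± 141 CPM (−1.10, adjusted p = 3.42e-09). These 3 kept their direction under both scalings. COL1A1, the other chain of type I collagen, was called lower, from 1912 ± 112 to 1658 ± 205 CPM (−0.21, adjusted p = 0.0143). Its change was 0.03 with libraries rescaled to the same total and 0.23 with quantile normalization. COL1A1 was chosen after its values were seen.

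Of 7 partners of the lysyl oxidases, 2 were higher and 4 lower (median −0.74). The list had 3 higher and 4 lower with libraries rescaled to the same total (median −0.50). With quantile normalization it had 2 higher and 3 lower, with a median of 0.00. That median is the value of FN1, a gene of the list at −0.78 as deposited and −0.54 with rescaled libraries. Quantile normalization allows no change for a gene that keeps its rank in all libraries, so nothing is read from this median. POSTN, which encodes the scaffold periostin, fell from 6449 ± 242 to 2822 ± 139 CPM (log2 fold change −1.19, adjusted p = 1.63e-12). EFEMP2, known to bring LOX to elastic fibers, fell from 131 ± 1.80 to 59.0 ± 5.999 CPM (−1.14, adjusted p = 1.67e-10). FBN1, the gene of fibrillin, fell from 1532 ± 44.04 to 916 ± 22.4 CPM (−0.74, adjusted p = 2.14e-11).

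**Figure D4:**
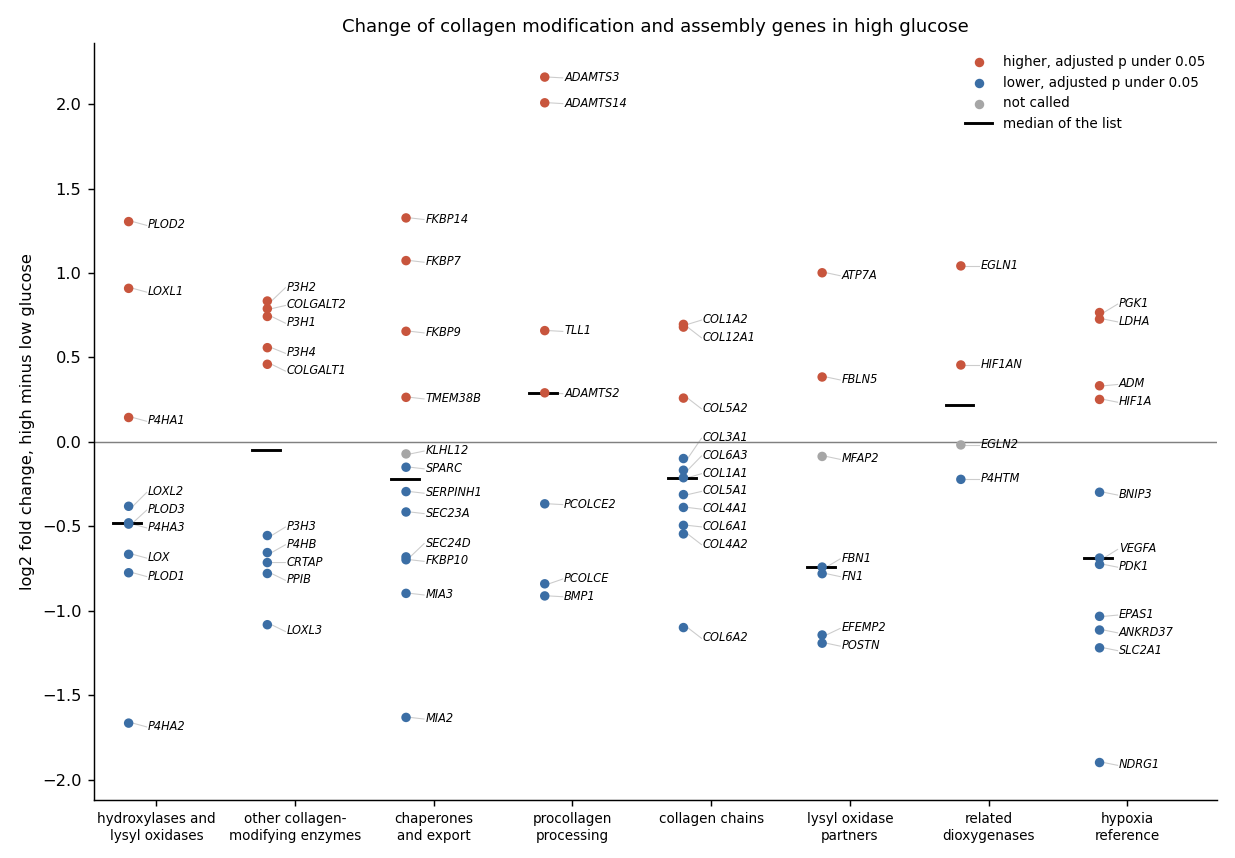
Log2 fold change of high over low glucose (vertical axis) for the tested genes of the 10 described here and of 7 lists around them, where they reached the filter on low values in both groups. Points are genes, red where higher and blue where lower at an adjusted p under 0.05 and gray where not called, and black lines are the medians of the lists. Genes of each list lie on both sides of 0, with P4HA2 at −1.67 and PLOD2 at 1.30.

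Other dioxygenases of the same cofactor need were listed beside the hydroxylases. Of 4 tested genes, 2 were higher, EGLN1 from 34.8 ± 1.30 to 72.7 ± 3.31 CPM (log2 fold change 1.04, adjusted p = 8.27e-11) and HIF1AN from 42.0 ± 2.82 to 58.0 ± 2.83 CPM (0.46, adjusted p = 4.89e-06), both of which hydroxylate hypoxia-inducible factors. P4HTM was called lower (−0.22, adjusted p = 0.0463) and lost that call under 9 of 16 alternatives. With libraries rescaled to the same total, 3 of the 4 dioxygenases were higher and 0 lower. Of 11 reference genes of the hypoxia response that reached the filter in both groups, 4 were higher and 7 lower (median −0.69). After rescaling to the same total, 4 were higher and 6 lower (median −0.44). NDRG1 fell from 1660 ± 32.2 to 445 ± 23.1 CPM (−1.90, adjusted p = 3.94e-15) and EPAS1 from 543 ± 11.9 to 265 ± 1.88 CPM (−1.03, adjusted p = 2.67e-13), and PGK1 rose from 273 ± 3.66 to 465 ± 2.09 CPM (0.77, adjusted p = 4.98e-12).

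The genes most like P4HA2 across the 8 libraries, by Pearson correlation of log2(CPM + 1), were CARS (r = 0.9999), TRIB3 (r = 0.9997) and VIM (r = 0.9995). CARS fell from 540 ± 4.45 to 241 ± 7.77 CPM and TRIB3 from 978 ± 33.9 to 97.4 ± 12.1 CPM. The points share their libraries and fall into 2 groups, and 50.7% of all tested genes had an absolute r over 0.9 with P4HA2, so these values describe the split between the groups.

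Markers of leukocytes, endothelial cells and adipocytes were low. The summed level of the 6 leukocyte markers, of which 3 were in the table, was 5.31 to 7.87 CPM in low and 7.42 to 10.1 CPM in high glucose, most of it CSF1R at 6.36 ± 1.03 and 7.13 ± 1.04 CPM. The 5 endothelial markers summed to 3.14 to 4.05 and 7.22 to 8.93 CPM, most of it PECAM1 at 2.05 ± 0.334 and 5.80 ± 0.603 CPM, and the defining marker CDH5 was at 0 in all 8 libraries. Several of these markers reached the filter in 1 group only, so no count of calls is given. The 4 adipocyte markers summed to at most 0.477 CPM in any library. Of the 6 mesenchymal markers, 5 were called lower. Of 4 luminal markers that reached the filter in both groups, KRT8 and KRT18 were called lower and GATA3 and FOXA1 were not called. As 37.2% of all tested genes were called lower, nothing is read from these counts. Among the endothelial markers, only PECAM1 reached the filter in both groups, and it rose. What part any of these markers had in the members' changes was not tested.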

How the data were processed

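RNA of Hs578T cells was sequenced in 8 libraries, 4 at 5 mM and 4 at 25 mM glucose, grouped by the treatment label. The signal deposited by the authors is 1 normalized table of 21077 genes. From the submitters' processing notes (hg38, edgeR) and the study's methods for RNA-Seq, it was taken as CPM with TMM factors. The design had foreseen plain CPM, and the same test was used. Those methods cover tumors, xenografts and cultured cells, but do not list cultured Hs578T cells among the lines sequenced. They name TopHat with hg19, where the notes name hg38, and the labels themselves name HiSeq and NextSeq instruments, so the aligner, build and instrument behind this table are uncertain. Values below 50 reads were whole within 0.005 read for 71.3% to 73.7%, so counts were fractional and no count model was used. Replicates differed by more than sampling noise (chi-square per gene 1.61 to 5.37 within groups).

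A gene was tested where 2 or more libraries reached 0.5 CPM. The test was limma (3.58.1, under R 4.3.3) on log2 values after adding a pseudocount of 1 CPM, with a trended prior, no covariates and an FDR of 0.05. Pairs of members were compared by a 2-sided exact permutation test over 70 arrangements. Members and lists were chosen with earlier results of these data known. Named genes were the 10 members, the 3 called genes of each list with the smallest p, and the 3 genes most correlated with P4HA2. Ensembl identifiers are those of the table, and positions are from RefSeq (GRCh38.p14). Transcript lengths are of MANE Select transcripts from a GRCh37 annotation. Alternatives covered the pseudocount, the filter, the scaling, the variance prior, the replicate block and each replicate left out.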

Additional observations from a re-analysis of the deposited data

How the results depend on the processing

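All 9 tested members kept their direction under 16 alternatives, and all kept their call but LOXL2 with quantile normalization. The members called numbered 9 with each replicate left out, and 10 with no filter on low values, where LOXL4 was tested. Rescaled to the same total, 62.8% of called genes were higher in place of 48.9%. Deviations of same-numbered replicates had correlations of −0.03 to 0.11, and those of differently numbered ones −0.15 to 0.08. As these ranges overlap, whether the numbers pair libraries cannot be told. With the replicate block, limma called 9 members and 11494 genes in place of 11350. The blocked sign-flip test of the pairs of members can give no p under 0.125, so 0 of 12 pairs could pass. LOXL1 minus LOXL4 reversed with a pseudocount of 0.1 CPM, from 0.59 to −0.54, and lost its call without each high-glucose replicate in turn. The pairs that passed numbered 10 to 11 with 1 replicate left out. Quantile normalization gave no value for the 3 pairs with LOXL4. LOXL4, at 0 to 4 counts, is limited by depth.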
